A study of Mus musculus with 2 samples.

Results

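The expression of 9 genes for transcription factors that hepatocytes depend on was followed in apoE-KO mouse liver under normal chow and under a high-Chol diet. They were the C/EBP genes Cebpa, Cebpb, Cebpd and Cebpg, the FoxA genes Foxa1, Foxa2 and Foxa3, and the homeobox genes Onecut1 and Prox1. They were chosen by name, as the probes that carry these gene names, and make up 9 of the 27962 gene names on the array. The array holds 16 probes for them, and all 16 were well above background on all 6 arrays, so that all 9 genes were among the 16727 genes compared.

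All mice were male C57BL/6 animals labelled as lacking Apoe, in the controls as well as in the treated group, so no mouse labelled with an intact gene entered the comparison. From 10 weeks of age they received normal chow or that chow with 1.25% Chol added, for 1 week. Liver RNA from 3 independent experiments per diet was labeled with Cy3 and hybridized to 6 one-color arrays with probes of 60 bases. How many animals gave the RNA of each array was not stated in the sources used here. Slide 1 held all 3 arrays of normal chow, at positions 1 to 3, and a single high-Chol array at position 4. Slide 2 held the remaining high-Chol arrays, at positions 2 and 3, so slide and diet are partly confounded. The probe for Apoe read 1.66 to 3.81 under normal chow and 3.18 to 3.56 under high Chol on the scale described below, well above background on all 6 arrays. The signal thus goes against an absence of all Apoe RNA. Whether the probe lies in the deleted part of the gene is not given in the sources used here, so the probe does not settle the genotype, which the labels give as the same for both diets.

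C/EBP proteins are bZIP factors, which pair through a leucine zipper and bind DNA through the basic stretch beside it. C/EBPα keeps the genes of gluconeogenesis, glycogen and urea synthesis active in the adult liver, whereas C/EBPβ and C/EBPδ are known as the factors induced by inflammatory cytokines. The FoxA proteins carry a forkhead domain and open chromatin at liver enhancers, and Onecut1 (HNF-6) and Prox1 are homeobox factors of liver development that remain active in hepatocytes.

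The probes are shown first because each signal below is the brightness of one such sequence. Positions are those of the mm7 build, which is the build of the array's annotation, and that annotation does not name the exon of a probe. A set of 3 C/EBP probes and 1 Onecut1 probe have a reading frame without a stop codon that runs through the leucine zipper or, for Onecut1, the homeodomain. They are given whole, with the leucine codons of that frame in capitals for the C/EBP genes.

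Cebpa, chr7:32010056-32010115, plus strand: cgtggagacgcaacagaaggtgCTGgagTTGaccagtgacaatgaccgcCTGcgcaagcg
Cebpb, chr2:167482463-167482522, plus strand: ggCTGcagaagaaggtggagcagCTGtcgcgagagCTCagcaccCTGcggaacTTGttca
Cebpg, chr7:31939516-31939575, minus strand: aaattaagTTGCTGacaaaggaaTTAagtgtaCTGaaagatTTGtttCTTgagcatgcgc
Onecut1, chr9:74927941-74928000, plus strand: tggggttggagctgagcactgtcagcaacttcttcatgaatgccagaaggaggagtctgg

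The 3 C/EBP probes read the same kind of segment in 3 paralogs, and each holds at least 1 pair of leucine codons that lie 7 codons apart (1 pair in Cebpa, 2 in Cebpb and 1 in Cebpg). Their letters nevertheless differ. Over all 111 pairs of probes from different members, the longest run of identical bases was 9, between a Cebpa and an Onecut1 probe.

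For Cebpd, Foxa2 and Foxa3, and for the brighter probes of Cebpa and Cebpb, 30 bases of the probe are given. In Cebpb the stretch holds AATAAA, the usual polyadenylation signal, in capitals.

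Cebpa, brighter probe, chr7:32011212-32011271, plus strand: ttttgttttggttttgctctgattcttgcc
Cebpb, brighter probe, chr2:167483001-167483059, plus strand: tgaagacattttAATAAActtttttgggag
Cebpd, chr16:15431723-15431782, plus strand: gacatttccgacagacttttgtagataaga
Foxa2, chr2:147783819-147783878, minus strand: ccattctggacatggtgaaatccaggtctc
Foxa3, chr7:16696078-16696137, minus strand: tgaccttttgagtatgtgacagaacacatc

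The 2 Cebpa probes start 1156 bases apart and the 2 Cebpb probes 538 bases apart. The brightest probes of Cebpg (chr7:31936790-31936849), Foxa1 (chr12:55476083-55476142) and Prox1 (chr1:189651079-189651138) lie on the minus strand. Both probes of the Cebpa pair, and both of the Cebpb pair, carry the same RefSeq transcript in the array's annotation, so each pair gives a second reading of one gene.

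Values are log2 signals minus the 75th percentile of the array, so that 0 is the 75th percentile and 1 unit is a 2-fold difference in signal. Levels of different probes are not compared with each other, and a sum over probes is compared only between arrays. The brightest probe stands for a gene, and the arrays are listed as normal chow at positions 1, 2 and 3, then high-Chol at position 4 of slide 1 and at positions 2 and 3 of slide 2. The 75th percentile itself ranged from 271 to 374 over the 4 arrays of slide 1 and was 799 and 762 on slide 2. Within a diet, the SD of a typical gene (the median over all genes) was 0.20 for normal chow and 0.25 for high Chol.

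None of the 9 genes passed an adjusted p of 0.05 between the diets (limma, Benjamini-Hochberg over all genes), where 2.92% of the 16727 genes did, 450 higher and 38 lower on the high-Chol diet. When arrays were scaled to their medians instead, these counts were 331 and 73. At an unadjusted p below 0.05, 4 members were lower (Cebpa, Foxa2, Foxa3 and Onecut1), against 8.83% of all genes, and the equal-variance test of the methods gave 3 at that level and 0 after adjustment. The same 4 genes were lower on every high-Chol array than on any normal chow array. That is 4 of the 8 members with a value on all arrays, whereas 14.0% of all such genes were lower without overlap and 11.9% higher, and no member was higher without overlap. They were also the 4 members that were lower by more than 1.5-fold, past which 5.84% of genes were lower and 15.4% higher; no member was higher by that much. The median log2 difference of the 9 members was -0.57, beside -0.02 for all genes tested. In whole liver RNA, fewer cells of a type and less RNA per cell cannot be told apart.

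**Figure D1:**
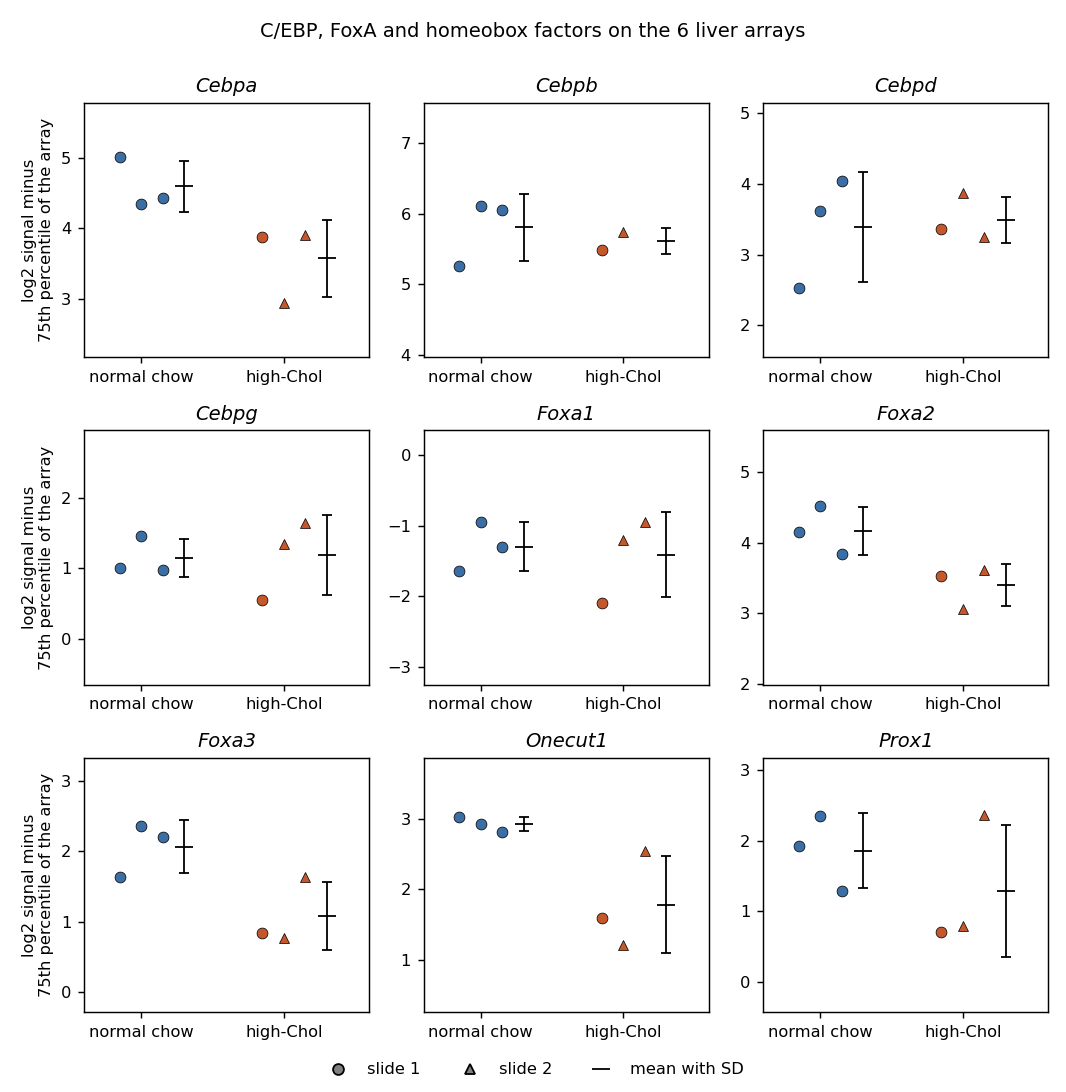
Signal of each of the 9 genes on each array, as log2 signal minus the 75th percentile of the array (vertical axis), by diet. Circles are arrays of slide 1, triangles of slide 2, and the bars give the mean with its SD (n = 3 per diet, except n = 2 for Cebpb on the high-Chol diet). Cebpa, Foxa2, Foxa3 and Onecut1 do not overlap between the diets, and the other five do.

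Cebpa, which encodes C/EBPα, was at 5.01, 4.34 and 4.42 under normal chow and at 3.87, 2.94 and 3.90 under high Chol. All 3 high-Chol arrays lay below the lowest normal chow array, and the array at position 2 of slide 2 was the lowest. The log2 difference was -1.02 (standard error 0.31, adjusted p = 0.151 from limma), a signal 2.03-fold higher on normal chow. The zipper probe gave 2.28, 1.20 and 1.63 under normal chow and 1.25, 0.05 and 1.00 under high Chol. There the high-Chol array of slide 1 lay just above the lowest normal chow array, so the diets overlapped, with a difference of -0.93 that was close to that of the brighter probe.

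Cebpb, which encodes C/EBPβ, gave 5.26, 6.12 and 6.05 under normal chow and 5.49 and 5.74 under high Chol. The spot at position 3 of slide 2 carried an outlier mark and was left out, so the fit used 2 high-Chol values for this gene. The 2 values lay within the range of normal chow, whose lowest array was position 1. The difference was -0.19 (standard error 0.30, adjusted p = 0.728 from limma), and its 95% interval ran from -0.93 to 0.55. The zipper probe had a value on every array, 2.93, 3.46 and 3.82 under normal chow and 3.16, 3.12 and 2.75 under high Chol, which again overlapped (difference -0.39).

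Cebpd, the third C/EBP gene and like Cebpb a target of cytokine signaling, was measured by 1 probe, at 2.53, 3.61 and 4.04 under normal chow and 3.36, 3.87 and 3.24 under high Chol. It had the widest spread of the members on normal chow, with an SD of 0.78 against 0.33 on the high-Chol diet, and all high-Chol values lay inside the normal chow range. The difference of 0.10 had a 95% interval from -0.82 to 1.02.

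Cebpg, which encodes a short C/EBP that pairs with the others and lacks a strong activation domain, was at 1.00, 1.46 and 0.97 under normal chow and 0.56, 1.35 and 1.65 under high Chol. The high-Chol array of slide 1 was the lowest of all 6 arrays and the 2 arrays of slide 2 were among the 3 highest. The difference was 0.04 (95% interval -0.67 to 0.76), and the other two Cebpg probes gave -0.18 and -0.15.

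Foxa1 was measured by 1 probe, at -1.64, -0.95 and -1.31 under normal chow and -2.09, -1.21 and -0.94 under high Chol. The values overlapped, again with the high-Chol array of slide 1 lowest and an array of slide 2 highest. The difference was -0.11 (95% interval -0.89 to 0.66).

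Foxa2, the FoxA gene best known for its part in fasting metabolism and bile acid homeostasis, was at 4.15, 4.52 and 3.84 under normal chow and 3.53, 3.06 and 3.62 under high Chol. No high-Chol array reached the lowest normal chow array, and the gap between the diets was narrow, from 3.62 to 3.84. Its probe is printed 10 times on each array, and the SD among the 10 spots was 0.06 to 0.11, less than the SD of 0.34 among normal chow arrays and 0.30 among high-Chol arrays. The difference was -0.76 (standard error 0.24, adjusted p = 0.153 from limma), a signal 1.70-fold higher on normal chow.

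Foxa3 was at 1.64, 2.35 and 2.20 under normal chow and 0.84, 0.77 and 1.63 under high Chol. The absence of overlap rested on a gap of less than 0.01 between the lowest normal chow array, 1.6404, and the highest high-Chol array, 1.6339. The difference was -0.98 (standard error 0.30, adjusted p = 0.145 from limma), or 1.98-fold.

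Onecut1 had the most even values on normal chow, 3.02, 2.93 and 2.82 (SD 0.10), and was at 1.59, 1.21 and 2.54 on the high-Chol diet (SD 0.68). All high-Chol arrays were lower, and the one at position 3 of slide 2 lay closest to normal chow. The difference was -1.14 (standard error 0.33, adjusted p = 0.131 from limma), a signal 2.21-fold higher on normal chow and the lowest adjusted p of the 9 genes. Its second probe, which the annotation ties to a cDNA clone and places 36801 bases from the first, was at 0.61, 0.04 and -0.10 under normal chow and -0.96, -1.37 and -0.40 under high Chol. This probe too did not overlap and differed by -1.09, so both probes of Onecut1 differed by about the same amount.

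Prox1, a corepressor of Cyp7a1 together with nuclear receptors, was at 1.93, 2.35 and 1.29 under normal chow and 0.71, 0.78 and 2.36 under high Chol. The arrays at position 4 of slide 1 and position 2 of slide 2 lay below normal chow, and the array at position 3 of slide 2 was the highest of all 6. On the probes of the RefSeq transcript that array was the highest of its diet but lay below the highest normal chow array. The difference was -0.57 (standard error 0.49, 95% interval -1.72 to 0.58). The brightest probe comes from a cDNA clone that RefSeq lists as a synonym of Prox1, and the 2 probes of the RefSeq transcript gave -0.50 and -0.53, with overlap in both.

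**Figure D2:**
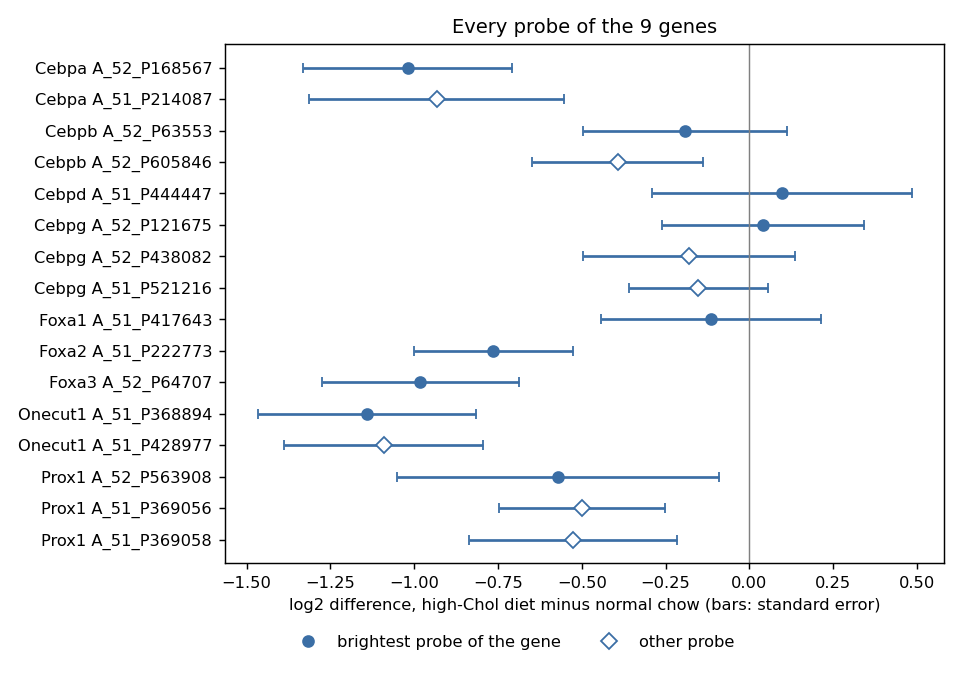
Log2 difference, high-Chol diet minus normal chow (horizontal axis), for each of the 16 probes with its standard error from limma. Filled circles are the brightest probe of a gene and open diamonds the others. Probes of one gene lie close together, with Cebpa at -1.02 and -0.93 and Onecut1 at -1.14 and -1.09, and 14 of the 16 probes lie below 0.

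A pattern shared by several members was the position of one array. At position 3 of slide 2, 7 of the 8 members with a value on every array had their highest high-Chol value, and Cebpd its lowest. Of all genes with a value on every array, 33.9% had their highest high-Chol value there. For Cebpa (3.90, with 3.87 as the second highest) and Foxa2 (3.62 and 3.53), the lead of that array was small. Without this array the difference of Onecut1 was -1.52 and its adjusted p 0.0416 from limma, so that 1 member was called. Its second probe was then at -1.34 and was not called (adjusted p = 0.0994 from limma). Foxa3 was then at -1.26 and Prox1 at -1.11, about 2 times its value with all arrays (the probes of the RefSeq transcript were at -0.65 and -0.75), whereas Cebpa was at -1.18 and Foxa2 at -0.87. Without the high-Chol array of slide 1 instead, Prox1 was at -0.28, Onecut1 at -1.05 and Foxa1 at 0.22, and no member was called. The median of the 9 members was -0.87 without the former array and -0.28 without the latter.

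When slide was fitted as a block, the contrast with normal chow rested on the single high-Chol array that shares their slide. All 9 members were then lower on the high-Chol diet, from -0.03 for Cebpd to -1.33 for Onecut1, and none was called. Foxa3 (-1.23), Onecut1 and Prox1 (-1.15) were lower by more than without the block, and Cebpa (-0.72) and Foxa2 (-0.64) by less. The increase for Prox1 belonged to its brightest probe, since the 2 probes of the RefSeq transcript were at -0.33 and -0.36 with the block, closer to 0 than without it. Cebpg moved from 0.04 to -0.59 and Foxa1 from -0.11 to -0.79. The part of slide in these differences was not tested beyond this fit.

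**Figure D3:**
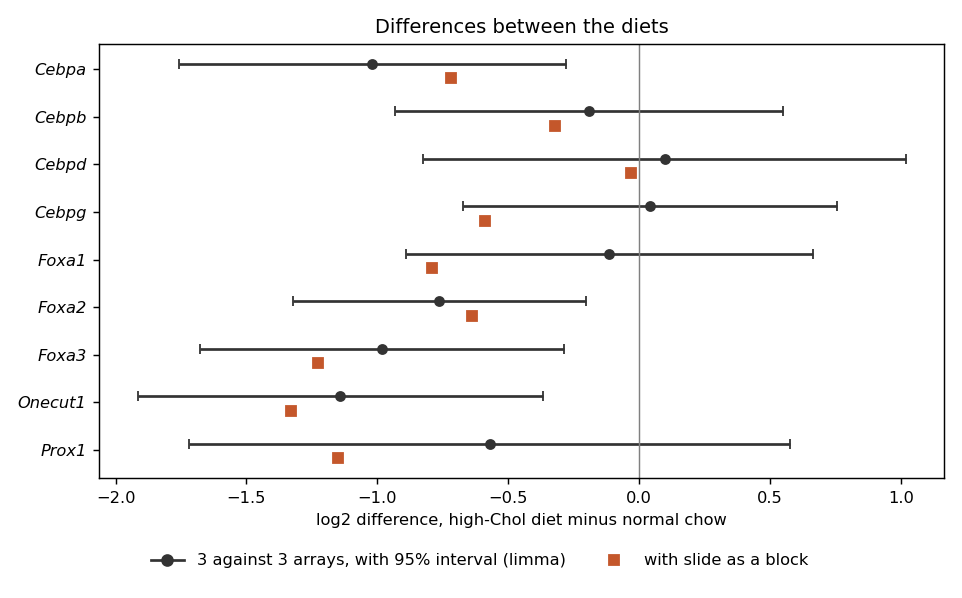
Log2 difference, high-Chol diet minus normal chow (horizontal axis), for the 9 genes. Circles with bars are the comparison of 3 against 3 arrays with its 95% interval from limma, and squares the value with slide as a block. The intervals of Cebpa, Foxa2, Foxa3 and Onecut1 lie below 0 before adjustment over all genes, and every square lies below 0.

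The values depended on how the arrays were scaled. Scaling to the median of each array shifted all genes with a value on every array alike. It put the median of all genes at -0.26. That median was -0.28 in the authors' deposited values, -0.11 with a normexp background and 0.03 with quantile normalization. Relative to that median, Cebpa was at -1.00 with median scaling, -0.98 in the deposited values and -0.56 with normexp. Onecut1 was at -1.12, -1.10 and -0.66, Foxa3 at -0.96, -0.95 and -0.57, and Foxa2 at -0.74, -0.73 and -0.35 on the same 3 scales. Median scaling and the deposited values thus left these 4 about where they were relative to all genes, and normexp brought them closer to the median. Cebpb, which lacks a value on an array, moved from -0.17 to -0.11 relative to all genes with median scaling. Quantile normalization gave -0.81 for Cebpa, -1.01 for Onecut1, -0.89 for Foxa3 and -0.57 for Foxa2. Cebpd and Cebpg were below 0 with median scaling (-0.14 and -0.19) but above the median of all genes (0.12 and 0.06).

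The promoters of the members were searched for the motifs of the factors themselves, in the 250 bases before each start that RefSeq lists on GRCm38.p6, on both strands. RefSeq's table held 11 starts for 8 of the 9 members. Sequences are printed for 3 of the 4 genes without overlap, those whose windows hold a match. Foxa2 is shown at its most upstream start, chr2:148046970-148047219 (minus strand), Foxa3 at chr7:19023540-19023789 (minus strand) and Cebpa at chr7:35119043-35119292 (plus strand). Capitals mark matches to the Onecut core ATCAAT, to the CCAAT box and to the TATA box TATAAA.

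Foxa2: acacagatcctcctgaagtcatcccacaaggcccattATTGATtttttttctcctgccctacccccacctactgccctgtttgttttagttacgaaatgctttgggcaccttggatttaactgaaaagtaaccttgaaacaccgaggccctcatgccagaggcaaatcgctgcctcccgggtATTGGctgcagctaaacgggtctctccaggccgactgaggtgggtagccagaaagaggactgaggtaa
Foxa3: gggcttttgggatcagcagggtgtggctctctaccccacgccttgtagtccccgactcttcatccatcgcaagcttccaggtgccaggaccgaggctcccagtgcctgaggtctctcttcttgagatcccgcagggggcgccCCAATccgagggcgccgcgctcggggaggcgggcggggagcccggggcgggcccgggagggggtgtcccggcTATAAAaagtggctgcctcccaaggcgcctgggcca
Cebpa: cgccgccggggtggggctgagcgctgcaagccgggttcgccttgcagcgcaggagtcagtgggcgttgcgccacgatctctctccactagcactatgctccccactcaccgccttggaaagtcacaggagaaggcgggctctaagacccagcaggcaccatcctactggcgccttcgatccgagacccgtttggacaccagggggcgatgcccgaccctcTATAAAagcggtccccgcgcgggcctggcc

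The Onecut core ATCAAT, which 6.72% of the 32851 promoters hold, was found upstream of Foxa2 only, 213 bases before its start, and ATCGAT (0.728%) in no member. The forkhead core TGTTTAC (3.17%) was found in Foxa1 and TGTTTGC (4.30%) in Prox1, and the C/EBP motif TTGCNNAA (9.56%) in no member. TATAAA, which 12.4% of promoters hold, stood 30 bases before the start of Cebpa and 36 before that of Foxa3, in the direction of the gene. On the opposite strand it stood 34 before 1 start of Prox1 and 208 before another start of Foxa2. CCAAT (33.8%) was found in Foxa1, Foxa2, Foxa3 and Cebpg. The Onecut1 window held none of these motifs, and 71.6% of its bases were G or C, beside a median of 52.4% over all promoters.

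The pair of members with the lowest p, Onecut1 and Foxa3, were set against 14042 genes with signal above background on each of the 6 arrays. Over the 6 arrays, the genes whose values followed Onecut1 most closely were Dph5 (Pearson's r = 0.998), Prtn3 (0.997) and Il12rb1 (0.996). Those closest to Foxa3 were Ppara (0.997), which encodes the fatty acid sensor PPARα, C230093N12Rik (0.996) and Mgll (0.996), which encodes monoacylglycerol lipase. The log2 difference of Ppara was -0.94 (adjusted p = 0.121 from limma), near the -0.98 of Foxa3. These values rest on 6 points that share the diet difference and are a description.

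Among relatives, partners and regulators of the C/EBP proteins, 2 of 13 genes tested rose and none fell by the test, and the median of the list was 0.06. The 2 that rose encode the stress-induced bZIP factor ATF3 (Atf3, 2.15, adjusted p = 0.0207) and the lymphoid bZIP factor BATF (Batf, 1.71, adjusted p = 0.0120), both from limma. Dbp, a clock-controlled bZIP factor, was at 6.57, 6.49 and 6.80 under normal chow and at 0.86, 0.87 and 5.64 under high Chol. Its relative Tef was at 3.08, 3.60 and 3.69 and then 0.83, 1.00 and 3.12. In both, the array at position 3 of slide 2 lay nearest to normal chow and the other two far below it. That array was also the highest of the 3 high-Chol arrays for Onecut1 and Prox1. The differences of -4.17 for Dbp and -1.80 for Tef did not pass the test (adjusted p = 0.134 and 0.164 from limma). Without that array Dbp was at -5.76 (adjusted p = 0.000895) and Tef at -2.54 (adjusted p = 0.0275), both from limma.

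Of 15 other hepatocyte transcription factors, 13 were lower and 1 of these passed the test, with a median of -0.35. It was Creb3l3 (-0.95, adjusted p = 0.0457 from limma), the fasting-induced regulator of triglyceride clearance, which was at 6.11, 6.07 and 6.12 under normal chow and 5.36, 4.82 and 5.28 under high Chol. Foxo1 was at -0.75 and Klf15 at 0.42, neither past the test.

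Genes that C/EBPα is known to bind were lower in 9 of 12 cases with none past the test (median -0.33). Gys2, glycogen synthase of the liver, was at -1.31 and Tat, tyrosine aminotransferase, at -0.52, whereas G6pc, the last enzyme of gluconeogenesis, was at 1.19 and Igfbp1 at 0.54. Of 14 genes that FoxA factors bind, 11 were lower with none past the test (median -0.34), among them the bile acid transporters Slc10a1 (-0.87) and Abcc2 (-0.60), and Ttr was at 0.48. Of 9 genes bound by Onecut1, 7 were lower with none past the test (median -0.52). That list includes Foxa2, itself a member (-0.76), so it is not separate from the members. Cyp7a1, the rate-limiting enzyme of bile acid synthesis, was at -1.33 with a standard error of 0.99 and at -2.48 without the array at position 3 of slide 2, its highest value of all 6, and Pfkfb1 at -0.86. These 3 lists share genes, so their medians are not separate readings.

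Among 16 acute-phase genes bound by C/EBPβ and C/EBPδ, 1 rose, 9 were below 0 and the median was -0.09. Without overlap between the diets, 6 were higher and 4 lower, where 11.9% and 14.0% of all genes were. The gene that rose was Lcn2, the iron-scavenging lipocalin (4.03, adjusted p = 0.00530 from limma), and the serum amyloid gene Saa3 was at 2.93 (adjusted p = 0.0504). Saa1 (2.43, adjusted p = 0.100 from limma) and Saa2 (2.41, adjusted p = 0.129), named after their values were seen, were also higher without overlap, and as near-identical paralogs they may share signal. Serpina3n was at -0.67 and Itih4 at -0.47. Of 10 cytokines, receptors and signal proteins that act on Cebpb and Cebpd, 9 were well above background under both diets, and 1 of these rose (median -0.10). Il1b, encoding interleukin-1β, rose by 2.02 (adjusted p = 0.0199 from limma). The remaining gene, Tnf, was not well above background on any normal chow array. It entered the comparison through the high-Chol arrays alone and so had to differ, and it is not counted as a gene that rose. With the background subtraction of the scanner output, its signal was at least 3.74-fold higher under high Chol. That bound does not hold with a normexp background, where its difference was -0.18, the opposite direction. Il6 was at 1.17, and the receptors Il1r1 and Il6ra were at -0.88 and -0.78, none past the test. The value of Il6 was -0.06 with normexp and 0.38 with slide as a block. It was 1.57 when position 4 of slide 1 was left out, which fully confounded slide and diet (adjusted p = 0.00294 from limma). Cebpb and Cebpd themselves overlapped between the diets on the same arrays. Of 10 glucocorticoid-induced genes, 8 were lower and none passed the test (median -0.44), with Fkbp5 at -1.92, and Sgk1 at 0.91 (5 of the 6 arrays) and Dusp1 at 0.28. Mt2 was at -1.01, which rests on a single high-Chol array, since the spots of the other 2 carried outlier marks.

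**Figure D4:**
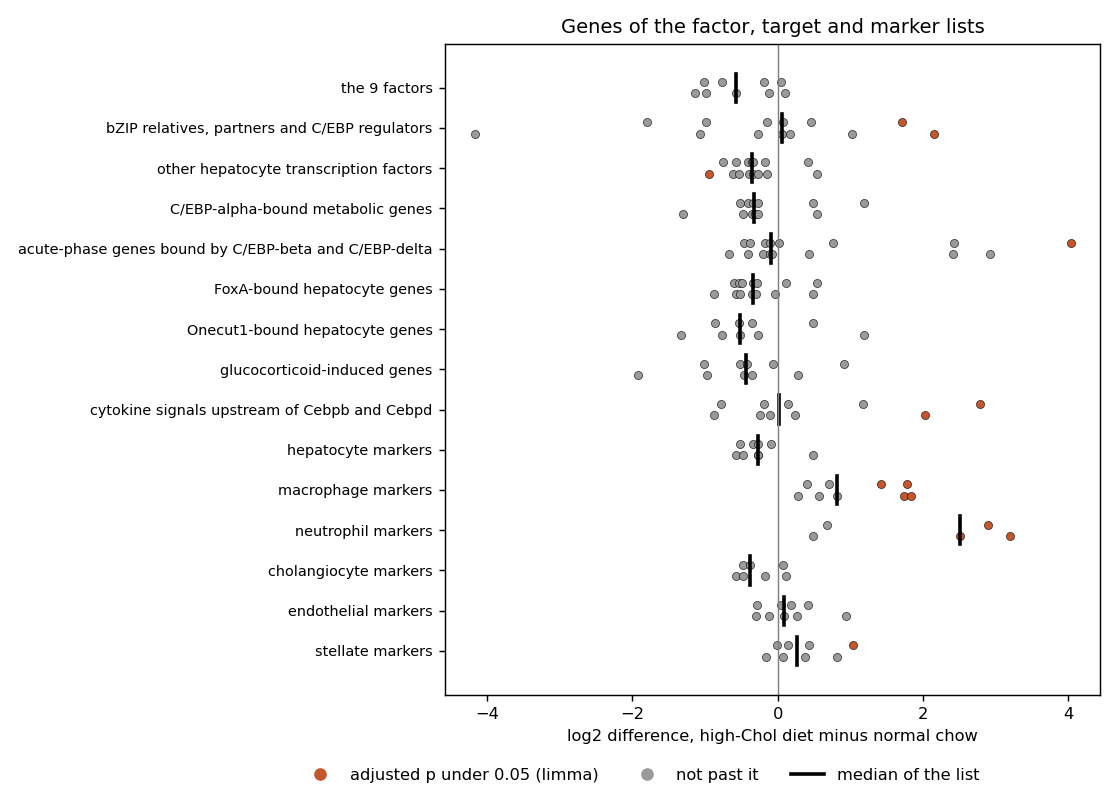
Log2 difference, high-Chol diet minus normal chow (horizontal axis), of each gene tested in each list (rows). Orange points have an adjusted p under 0.05 from limma, gray points do not, and the black bar is the median of the list. The 9 factors have a median of -0.57 with no orange point, and the macrophage and neutrophil markers lie above 0. Tnf and Retnlg are among the orange points but were compared through the high-Chol arrays alone.

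Markers of the cell types in the tissue stand beside these values. The summed signal of 9 hepatocyte markers, in multiples of the 75th percentile, was 1935 to 2258 on normal chow and 1648 to 1718 on the high-Chol diet. Among them Alb was at 9.52 against 9.18 and Apoa2 at 8.62 against 8.53. Of the 9, 8 were below 0 and none passed the test (median -0.27), with Apoa1 at -0.57 and Ttr at 0.48. All 9 macrophage markers tested of 10 were higher and 4 rose by the test, namely Marco (1.83), Lyz2 (1.78), Cd68 (1.74) and Cd5l (1.42), with a summed signal of 158 to 187 against 393 to 528 over the 8 with a value on every array. Itgam was not tested, for lack of signal above background. Of 10 neutrophil markers 4 were well above background under both diets and 2 of these rose, S100a8 (3.21) and S100a9 (2.90). Retnlg, like Tnf, was compared through the high-Chol arrays alone and is not counted. Its bound of at least 3.76-fold higher likewise does not hold with a normexp background, where it was at -0.21. The summed signal of the 4 markers was 2.01 to 2.32 against 10.2 to 16.4. The granule genes Ngp, Camp, Mmp8 and Elane, and Cxcr2, were not above background on all arrays of either diet. None of 7 cholangiocyte markers passed the test (median -0.38, sum 14.6 to 17.6 against 10.1 to 13.2), with Spp1 at -0.57, Epcam at -0.48, Tspan8 at 0.11 and Krt19 at 0.07. None of 9 endothelial markers did either (median 0.08, sum 32.5 to 36.9 against 33.3 to 36.4), with Cdh5 at 0.94, Lyve1 at 0.41, Flt4 at -0.30 and Kdr at -0.29. Of 8 stellate markers Col1a1 rose (1.04, adjusted p = 0.0257 from limma), and Col3a1 was at 0.82, Lrat at -0.16 and Reln at -0.01 (sum 9.61 to 13.3 against 12.9 to 15.5). The part of these cell types in the signal of the 9 factors was not tested.

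In these lists, 12 genes had an adjusted p under 0.05 and were well above background under both diets. Of these, 5 remained called without the normal chow array at position 2, 5 without the array at position 2 of slide 2 and 5 without that at position 3. All 12 remained called when position 4 of slide 1 was left out. That case left slide and diet fully confounded, and 3944 of all genes were then called. Creb3l3 remained called in 1 of the 6 cases. With slide as a block, none of the 12 was called. Differences such as 3.67 for Lcn2, 2.83 for S100a9, 2.00 for Il1b, 1.99 for Marco and 1.66 for Cd68 nevertheless stayed near those without it. Those of Atf3 (1.68), Lyz2 (1.32), Cd5l (1.13) and Creb3l3 (-0.74) came closer to 0. Several genes named above that had not passed the test came closer to 0 with the block, among them Slc10a1 (-0.20), Serpina3n (-0.20), Itih4 (-0.13), Apoa1 (-0.09), Ttr (0.18), Foxo1 (-0.43), Tat (-0.29), Pfkfb1 (-0.49), Il1r1 (-0.46), Spp1 (-0.30), Lyve1 (0.09), Kdr (-0.11) and Flt4 (-0.04). Others moved away from 0, among them Igfbp1 (1.75), Lrat (-0.43), Krt19 (0.39), Tspan8 (0.23) and Apoa2 (-0.26). So did Dbp (-5.76), Tef (-2.62), G6pc (1.58), Cyp7a1 (-1.60), Gys2 (-1.43), Epcam (-0.70) and Abcc2 (-0.64). Dusp1 (-0.61) and Klf15 (-0.0063) changed direction. Over all alternatives Dusp1 ranged from -0.61 to 0.73 and Igfbp1 from -0.07 to 1.75. None of the 12 genes was called with a normexp background. Normexp kept the direction of all 12 and made 7 of them smaller by over 1.5 times, Batf (0.13), Il1b (0.48), Atf3 (0.76), S100a8 (1.09), Lcn2 (2.63), Col1a1 (0.54) and Creb3l3 (-0.55). Over 17 alternatives, the medians of the C/EBP relatives (-0.19 to 0.15) and of the 10 cytokine signals (0.02 with Tnf, -0.22 to 0.21) each changed sign in 8, that of the acute-phase genes (-0.34 to 0.18) in 3 and that of the endothelial markers (-0.16 to 0.19) in 2, so these lists have no settled direction. The medians of the other lists kept their sign, but several came close to 0. With a normexp background they were -0.0062 for the genes bound by C/EBPα, -0.075 for those bound by FoxA and -0.031 for the hepatocyte markers. The median of the 5 neutrophil markers tested, Retnlg included, fell from 2.51 to 0.30 with normexp. The stellate median was 0.026 with median scaling and 0.019 in the deposited values, and the hepatocyte median -0.048 with quantile normalization. Of the other genes named from these lists, Tspan8 (-0.44), Krt19 (-0.30), Apoa2 (0.23) and Reln (0.06) also had the opposite direction with normexp.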

How the data were processed

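Liver RNA was measured on 6 one-color 4x44K arrays, 3 per diet. The authors deposited scanner output with intensity values, in which Feature Extraction (version 9.5 on slide 1 and 9.1 on slide 2; the labels give 9.1) had subtracted the background, and also deposited log2 values, 1 per probe and diet, which the authors had normalized and filtered in Gene Spring GX (the scaling is not given in the sources used here). From the intensity, log2 signals were taken relative to the 75th percentile of non-control spots. Spots marked as outliers were dropped and repeated spots averaged. A probe had to be well above background on every array of 1 diet or the other, and each gene was read from its brightest probe. The fit used limma (3.58.1, R 4.3.3) across 16727 genes (Benjamini-Hochberg, threshold 0.05). An exact permutation test of 3 against 3 arrays cannot give a p below 0.1. The number of arrays limits the precision. The p-values measure the spread between these arrays only, since the labels do not say which animals were used. Members, lists, the naming rule and tests were chosen with earlier results of these data known. From each list, the called genes and in each direction the 2 largest differences were named, except for an item that is not reported here. Symbols were updated through RefSeq accessions (GRCm38.p6), and 135 of 138 listed genes matched. The alternatives were normexp (offset 50), median and quantile scaling, no or a stricter filter, single or averaged probes, slide as a block, a trended robust prior, the methods' t-test, the deposited values and each array left out.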

Additional observations from a re-analysis of the deposited data

How the results depend on the processing

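No member was called under 15 of the 16 alternatives with a test. Onecut1 was called when the array at position 3 of slide 2 was left out, so that leaving out single arrays gave 0 to 1 members. The median of the members was below 0 under every alternative, from -0.28 to -0.87 with single arrays left out. The number of members lower without overlap was 4, and it was 0 with a normexp background and 2 with quantile normalization, where the share of all genes fell from 14.0% to 1.56% and 10.1%. The differences of Cebpa, Foxa2, Foxa3, Onecut1 and Prox1 were below 0 under every alternative that gave a value. Cebpb was at 0.023 with quantile normalization and at -0.47 to -0.037 with single arrays left out. As the mean of its probes it was at -0.77, beyond either probe alone, because the array without a value for the brighter probe was then read from the dimmer one. Cebpd was at -0.14 with median scaling, -0.032 with slide as a block and -0.14 in the deposited values, and -0.33 to 0.42 with single arrays left out. Cebpg was at -0.19, -0.59 and -0.20 under the same 3 settings, at -0.10 as the mean of its probes, and at -0.19 to 0.36 with single arrays left out. Foxa1 was at -0.35 to 0.22 with single arrays left out. The causes were not tested. Over all genes, 488 were called, against 0 with normexp, 26 without a filter on dim probes, 11 with slide as a block, 5 with the methods' t-test and 42 to 3944 with single arrays left out. The 3944 were called without the high-Chol array of slide 1, which left slide and diet fully confounded. No paired analysis was possible because the labels number the 3 arrays of a diet together and tie no number to an array. The difference of Prox1 lay within the spread of its own arrays.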
